A study of Mus musculus with 3 samples.

Results

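The cytosolic ribosomal protein genes were followed through the in vitro differentiation of mouse testis mesenchymal cells towards Leydig cells, the steroid-producing cells of the testis. Genes were taken as members when their symbol was Rpl or Rps followed by a number, or Rplp0, Rplp1, Rplp2 or Rpsa, and when they held at least 20 unique molecular identifiers (UMIs, each counting 1 captured transcript) over the 3 culture days. S6 kinase genes and symbols marked as pseudogenes were left out. This gave 82 of the 13593 genes with at least 20 UMIs, made up of 47 large-subunit genes, 32 small-subunit genes and the 3 genes of the P-stalk, the flexible arm of the large subunit that recruits elongation factors. The rule used symbols and a count minimum and no difference between days or cells. Another 4 symbols fitted the name but not the minimum, namely Rpl10l with 4 UMIs, Rps12l1 with 4, Rpl3l with 6 and Rps12l2 with 15.

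Ribosomal proteins are made in near equal numbers, imported into the nucleolus and assembled there with ribosomal RNA into the small and large subunits. Their mRNAs are among the most abundant of any cell and commonly begin with a 5′ terminal run of pyrimidines, through which mTORC1 signalling holds or releases their translation. Growing and dividing cells make many ribosomes, and cells that leave the cycle to differentiate usually make fewer. Leydig cells make androgens and seldom divide.

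Cells came from testes of C57BL/6 adult males aged 8 to 12 weeks and had been sorted as Sca1+/cKit-. They were plated on Matrigel at 100000 cells per well, recovered for 18 hours in serum and expanded for 3 days with PdgfAA, PdgfBB, Fgf2 (each at 10 ng/ml) and SAG at 0.5 uM, a hedgehog pathway agonist. The medium was then replaced by one that also held LiCl2 at 5 mM and DAPT at 10 uM, a Notch pathway inhibitor, and Drop-seq libraries were made on culture days 4, 7 and 14. By this schedule cells of days 7 and 14 had spent 3 and 10 days in that medium, whereas the study describes day 4 as a stage of the expansion medium. Each day had 1 library, so no difference between days or cell states could be tested, and all intervals given here are 95% intervals of counting error alone. How many animals or wells went into a library is not given in the sources used here.

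The libraries held 2980 cells on day 4, 2171 on day 7 and 973 on day 14, with 12677110, 11627440 and 5324400 UMIs. The median cell held 2886.5, 3285 and 3272 UMIs. No barcode was shared between days. Within a day, however, 1304, 1026 and 504 cells had a barcode that shared its first 11 bases with another cell of that library, so some may not be separate cells, and shares of UMIs are also given without them.

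To examine how much of the captured RNA encoded ribosomal proteins, member UMIs were summed per day. On day 4 members made up 13.21% of UMIs (exact interval 13.19 to 13.23%). The share was 12.82% on day 7 (12.80 to 12.84%) and 11.88% on day 14 (11.85 to 11.91%). The share was thus lower at each later day, and the step between days 7 and 14 was the larger one. The quartiles over cells were 11.7 and 15.04% on day 4, 11.3 and 14.9% on day 7, and 10.1 and 14.05% on day 14, so the cells of different days overlapped widely. Without the cells of near-identical barcodes the shares were 13.19%, 12.82% and 11.78%. Among the barcodes that the authors had removed, 12.1%, 9.51% and 10.2% of UMIs fell on members. Genes of the mitochondrial genome took 1.37%, 1.46% and 2.64% of UMIs, and with them left out of the total the members held 13.39%, 13.01% and 12.20%. The nuclear RNAs Malat1, Neat1, Meg3 and Kcnq1ot1 summed to 0.547%, 0.703% and 1.42%, and their part in the member share was not tested. Day, medium and library cannot be told apart.

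Small-subunit genes held 5.94%, 5.71% and 5.12% of UMIs on days 4, 7 and 14, and large-subunit genes 6.15%, 5.89% and 5.78%. The P-stalk genes held 1.12%, 1.21% and 0.974%. The ratio of small-subunit UMIs to large-subunit and stalk UMIs went from 0.817 to 0.804 and 0.758, lower at each later day. On day 14 this lower ratio was found in both main states, with 0.769 in differentiating Leydig-like and 0.749 in Leydig-like cells.

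**Figure D1:**
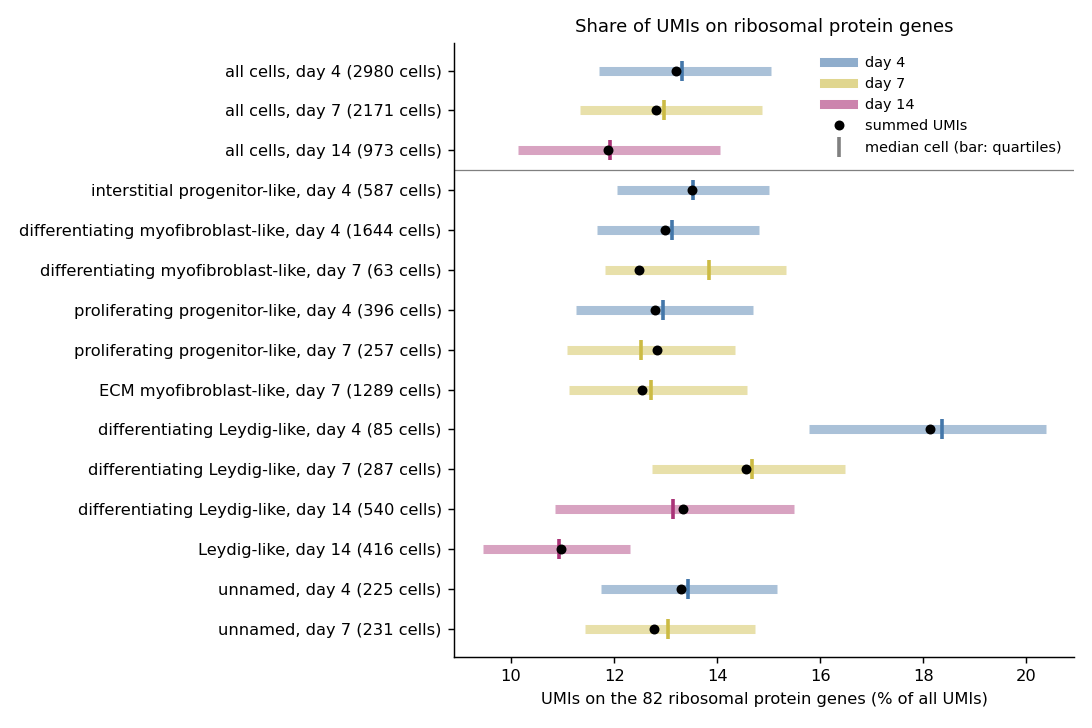
Share of UMIs on the 82 ribosomal protein genes, in percent of all UMIs, for each day and for each cell state with at least 50 cells of that day. Black points are summed UMIs, ticks the median cell and bars the quartiles over cells; differentiating Leydig-like cells of day 4 stand highest at 18.1% and Leydig-like cells of day 14 lowest at 10.97%.

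Of the members, Rplp1, an acidic P-stalk protein, had the most UMIs on each day, with 5881, 6490 and 4911 UMIs per 1000000 UMIs of the library (CPM). Next in order over all days came, among others, Rps12 (106388 UMIs), Rplp0, the stalk's anchoring protein (91138), Rps14 (83669), Rpl32 (82010), Rps26 (81900), Rpl13 (79750), Rpl13a (79690) and Rpl41 (77377). These are UMIs of 3′ ends and do not rank the proteins. The 10 highest members of a day held 24.2 to 25.5% of its member UMIs, so the total was spread over many members. The median member stood at 1487, 1481 and 1393 CPM, and 64, 62 and 58 members reached 1000 CPM.

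Some ribosomal protein genes fell outside the symbol rule. Rps3a1 held 71612 UMIs, with 2392, 2367 and 2586 CPM on days 4, 7 and 14. Gnb2l1, which encodes the scaffold protein RACK1 of the small subunit, stood at 1775, 1819 and 1552 CPM. Fau, which encodes a small-subunit protein fused to a ubiquitin-like domain, stood at 1193, 1279 and 1432 CPM. Rps27rt, Rpl37rt and Rps3a3, retrogene copies, had 148, 718 and 82 UMIs.

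To compare members between days, the log2 ratio of CPM was taken per gene after 1 CPM was added. The 80 members with at least 1000 UMIs were set beside all 4535 genes with as many. Between days 4 and 7, 51 of the 80 were lower on day 7, against 46.6% of all genes, and their median log2 ratio was -0.06, against 0.03 for all genes. None of them passed 1.5-fold, where 5.91% of all genes were higher and 5.01% lower by that much. Scaling by the median of ratios in place of total UMIs moved every ratio of this pair by -0.11 and the members' median to -0.17.

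Between days 7 and 14, 49 of the 80 were lower on day 14 (65.3% of all genes), with a median of -0.07 against -0.25 for all genes. Only 4 were lower and 1 higher by 1.5-fold, where 29% and 13.4% of all genes were. Over the whole course, 56 of 80 were lower on day 14 than on day 4 (62.2% of all genes), with a median of -0.16 against -0.25, and 10 were lower and 2 higher by 1.5-fold, against 31.7% and 16.3% of all genes. The members thus kept within a narrower range than all genes with at least 1000 UMIs, a set not matched on level: their log2 ratios from day 4 to day 14 had an SD of 0.36 over genes, against 1.199 for all genes. Of the 80, 35 were lower at both steps, 15 higher at both, 16 lower then higher and 14 higher then lower. These courses were not counted over all genes, so they are not read as particular to the members.

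**Figure D2:**
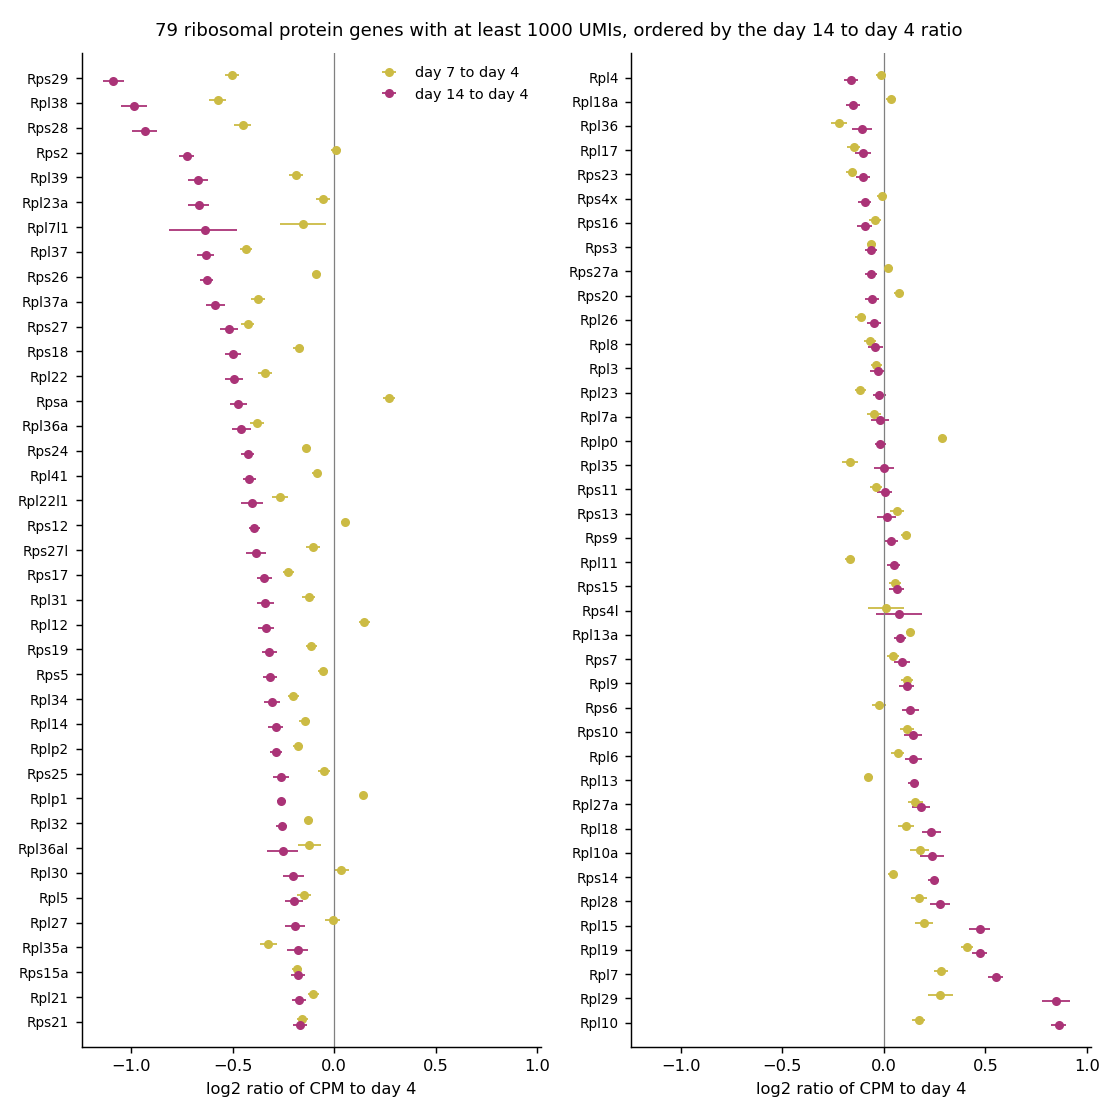
Log2 ratio of CPM on day 7 (yellow) and day 14 (purple) to day 4 for 79 of the 80 members with at least 1000 UMIs, ordered by the day 14 ratio; bars are 95% counting intervals. The list runs from Rps29 at -1.09 to Rpl10 at 0.86.

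Among members with at least 1000 UMIs, the 3 with the lowest ratio from day 4 to day 14 all had short principal transcripts, of 367.5 to 390 bases. Rps29, a zinc-binding small-subunit protein (chr12:69157722-69159186, minus strand, GRCm38), had 1426, 1007 and 670 CPM on days 4, 7 and 14, a log2 ratio of -1.09 (interval -1.14 to -1.04) from day 4. Rpl38, known for patterning defects in mice that lose a copy (chr11:114668524-114672331, plus strand), had 860, 577 and 434 CPM, a ratio of -0.99 (-1.05 to -0.92). Rps28 (chr17:33819027-33824562, minus strand) had 934, 683 and 489 CPM, a ratio of -0.93 (-0.99 to -0.87). All 3 were lower at each step and were, with Rpl37 at -0.44 and Rps27 at -0.43, also the 5 lowest of the first step among these members.

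Rps2, which sits at the mRNA entry channel, was level between days 4 and 7 with 2356 and 2371 CPM and had 1423 CPM on day 14. Rpsa, which also serves as a laminin receptor at the cell surface, was higher on day 7 (1935 CPM) than on day 4 (1604 CPM) and lowest on day 14 (1156 CPM). Among members with at least 1000 UMIs these 2 genes had the lowest ratios of the second step, -0.74 each, followed by Rpl23a (-0.61), Rps29 (-0.59) and Rps26 (-0.54). Rpl39, a protein of the peptide exit tunnel, stood at 1312, 1152 and 825 CPM and was the fifth lowest of the same members over the whole course (-0.67).

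At the other end, Rpl10, a late-joining protein of the large subunit encoded on the X chromosome (chrX:74270812-74273135, plus strand), had 1103, 1241 and 2003 CPM, a log2 ratio of 0.86 (0.82 to 0.90) from day 4 to day 14. Rpl29 (chr9:106429454-106431568, plus strand) had 308, 374 and 555 CPM, a ratio of 0.85 (0.78 to 0.92). Rpl7 had 1140, 1385 and 1670 CPM, Rpl19 1338, 1779 and 1856 CPM and Rpl15 649, 744 and 901 CPM. Each of these 5 large-subunit genes was higher at both steps. Rpl19 led the first step (0.41), before Rplp0 (0.29), Rpl7 (0.28), Rpl29 (0.28) and Rpsa (0.27). Rpl10 (0.69) and Rpl29 (0.57) led the second, before Rpl15 (0.28), Rpl7 (0.27) and Rpl13 (0.22). Proteins that enter the ribosome in equal numbers thus had mRNAs whose ratios ran from -1.09 to 0.86.

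The P-stalk genes were the one functional set described apart. Rplp0 had 2836, 3464 and 2801 CPM, Rplp1 the values given above and Rplp2 2477, 2190 and 2031 CPM. Rplp0 and Rplp1 peaked on day 7 and Rplp2 did not. From day 4 to day 14 Rplp0 stood at -0.02, with a sign that changed under other settings, Rplp1 at -0.26 and Rplp2 at -0.29.

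To show what the members share at their start, RefSeq promoters of the GRCm38.p6 build were read from 15 bases before to 15 bases after the annotated start. A run of at least 6 bases that were all C or T was searched on the transcribed strand only. It was found in 38 of the 61 members with an entry (62.3%), in 32.7% of all 27025 genes of the table and in 31.7% of the 3434 other genes with at least 1000 UMIs and an entry. Annotated starts can lie beside the start that cells use, so the run need not be at the 5′ end of the mRNA. Shown here are 4 genes of the lower end, 3 of the higher end and 2 paralogs, with the longest run, where there is one, in capitals.
Rpl38, chr11:114668565-114668594, plus strand: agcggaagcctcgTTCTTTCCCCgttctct
Rps27, chr3:90213634-90213663, minus strand: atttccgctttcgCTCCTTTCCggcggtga
Rps2, chr17:24720048-24720077, plus strand: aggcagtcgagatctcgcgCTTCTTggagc
Rps28, chr17:33824548-33824577, minus strand: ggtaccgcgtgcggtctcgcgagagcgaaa
Rpl15, chr14:18270972-18271001, minus strand: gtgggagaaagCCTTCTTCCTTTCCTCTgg
Rpl19, chr11:98026909-98026938, plus strand: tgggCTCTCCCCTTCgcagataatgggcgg
Rpl10, chrX:74270801-74270830, plus strand: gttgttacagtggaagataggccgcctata
Rpl22l1, chr3:28805493-28805522, plus strand: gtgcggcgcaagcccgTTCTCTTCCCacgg
Rpl36al, chr12:69184053-69184082, minus strand: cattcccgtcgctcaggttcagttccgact
Genes with and without the run stood at both ends of the order by day. Rpl19 has a second annotated start whose window held no run.

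The same members were next followed within cell states, to see whether their course was also found inside single states. Cells were clustered without the members and without the lists of translation genes, and clusters were named from marker genes. The differentiating myofibroblast-like name covers clusters led by interferon-response genes such as Isg15, Ifit1 and Irf7. Proliferating progenitor-like cells, led by Cenpa, Cdc20 and Cenpf, numbered 396 on day 4 and 257 on day 7. Within them 42 of the 80 members were higher on day 7, against 53.7% of all genes, and the median was 0.02. Rpl38 had 799 and 560 CPM, Rps29 1427 and 1029 CPM and Rps28 802 and 617 CPM on the 2 days. Rpl19 had 1265 and 1697 CPM, Rpsa 1619 and 2144 CPM and Rpl7 1042 and 1331 CPM. These 6 genes stood at -0.51, -0.47 and -0.38 and at 0.42, 0.40 and 0.35 on the log2 scale. The 5 lowest and 5 highest members of the first step held 4 more genes. Rpl37 stood at -0.46, Rps27 at -0.32, Rplp0 at 0.29 and Rpl29 at 0.29 in this state. All 10 thus had the same direction in this dividing state as in the whole libraries. They were picked from those libraries, which include these cells, so the shared direction is no separate support. Rpl37a, at -0.47, was the second lowest here.

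Differentiating Leydig-like cells were present on all days, with 85, 287 and 540 cells. On days 4 and 7 most of them formed 1 cluster, with the elastic fibre genes Eln, Mfap2 and Mfap4 among its leading genes, and on day 14 most formed another, led by Slc38a5, Gpx3 and Mmp2, so the days also differ in cluster. The name is least certain on day 4: at a clustering resolution of 1.2 the same 82 cells of that day were named interstitial progenitor-like, and only 3 of the 85 kept the name. At that resolution a cluster led by Eln, Mfap4 and Cilp held 1 cell of day 4 and 232 of day 7. Another, led by Hpgd, Chrdl1 and Ogn, held 82 and 38. The ratios between these days are thus of cells under 1 name, not of 1 uniform state. Over the 3 days Rpl38 had 968, 697 and 448 CPM in the cells of this name, Rps29 1692, 1160 and 728 CPM and Rps28 1521, 881 and 514 CPM. Rpl10 had 1591, 1445 and 2023 CPM and Rpl29 474, 425 and 631 CPM. The 3 low members were lower at each day, whereas Rpl10 and Rpl29 were higher on day 14 alone. These genes too were picked by their ratios in the whole libraries, which include these cells. From day 4 to day 7 only 7 of the 80 members were higher in cells of this name (58.5% of all genes). The median was -0.32, with the lowest ratios in Rps27 (-0.83), Rps28 (-0.79) and Rpl36a (-0.78). From day 7 to day 14, 24 of 80 were higher (37.8% of all genes), with a median of -0.08, the lowest being Rps28 (-0.78), Rpl23a (-0.71) and Rps29 (-0.67).

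**Figure D3:**
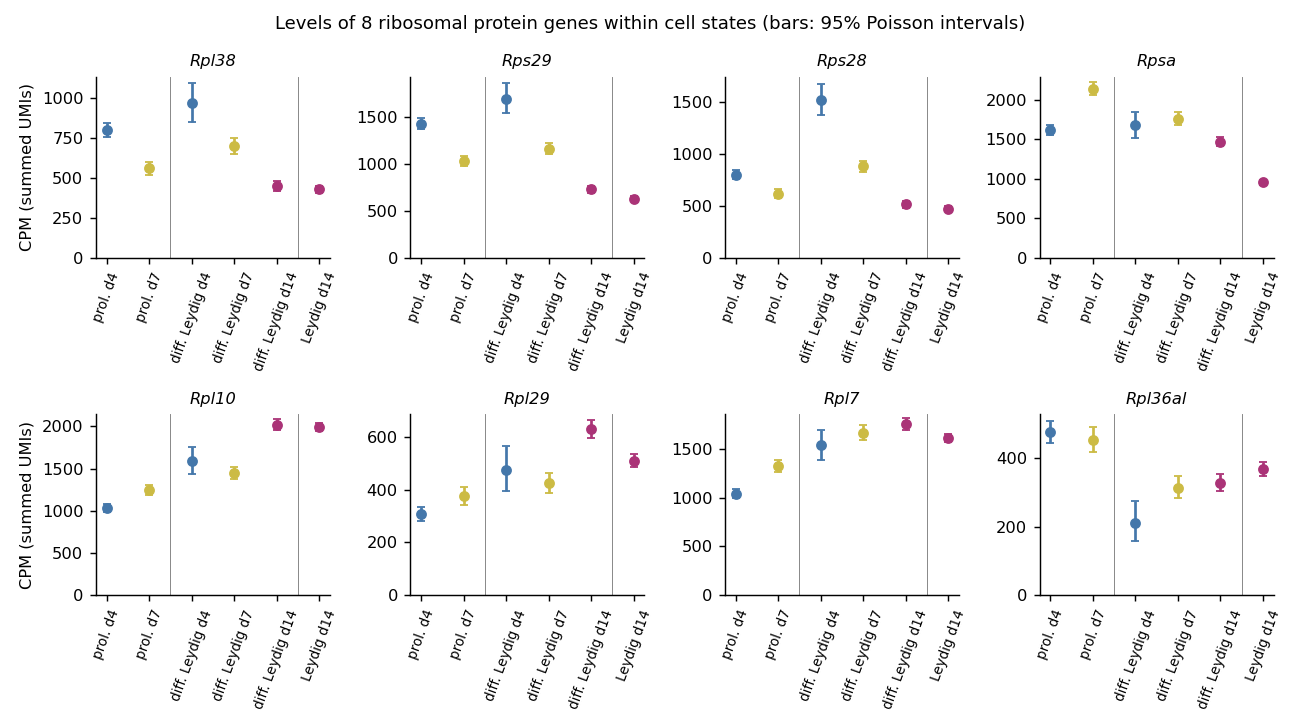
CPM of 8 members in summed UMIs of proliferating progenitor-like, differentiating Leydig-like and Leydig-like cells by day, with axes from 0 and 95% Poisson intervals. Rpl38, Rps29 and Rps28 are lower at each later day in cells of the same state name, and Rpl10 stands near 2000 CPM in both states of day 14.

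Cell states of 1 day differed in their member share, and the highest was found in the 85 day 4 cells named differentiating Leydig-like. They held 18.1% of their UMIs on members (interval 18.0 to 18.3%), against 13.5% in interstitial progenitor-like, 13.0% in differentiating myofibroblast-like and 12.8% in proliferating progenitor-like cells. The differentiating myofibroblast-like cells formed a deep and a shallow cluster, with a median of 4781 and 1141 UMIs per cell and shares of 12.8% and 13.8%. The quartiles of the 85 cells, 15.8 to 20.4%, lay above the upper quartile of the other named states of that day with more than 50 cells. The share was 17.8% in the 64 of these 85 cells with no near-identical barcode, and 18.4% in the 50 cells with 2000 to 6000 UMIs, about as high as in all 85. The summed nuclear RNAs were also higher in them, with 11481 CPM against 5492 CPM in differentiating myofibroblast-like cells, and mitochondrial genes took 1.73% against 1.31%. The part of these in the share was not tested. At resolution 1.2, 82 of them formed the day 4 part of 1 cluster, with a share of 18.0% and the name interstitial progenitor-like, so the share held and the name did not. Interstitial progenitor markers summed to 4644 CPM in the 85 cells, against 2595 CPM in the interstitial progenitor-like state of that day, and differentiating Leydig markers to 4399 against 1872 CPM. Of other cell types, the 10 macrophage and 4 erythroid markers had no UMI in them. Endothelial markers (2 of 8 with a UMI) stood at 124 CPM against 79.2 to 91.6 CPM in the other 3 states, and Sertoli and germ cell markers at 27.2 CPM each. The part of these in the share was not tested either.

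Gene by gene, 77 of the 80 members were higher in these cells than in differentiating myofibroblast-like cells of day 4, against 42.4% of all genes, a comparison added after the shares had been seen. The median was 0.49, against -0.15 for all genes, and 0.28 when scaled by the median of ratios. Of the members, 21 were higher and 1 lower by 1.5-fold, where 47.7% of all genes passed 1.5-fold in either direction. The 85 cells held only 257113 UMIs, so ratios of genes at lower CPM than most members rest on few UMIs. The part of counting error in the 47.7% was not tested. Rps27, a zinc-finger protein of the small subunit, had 2571 against 1426 CPM (0.85), Rpl36a 2162 against 1215 CPM (0.83) and Rpl22l1 1501 against 893 CPM (0.75). The 3 exceptions were Rpl36al (210 against 421 CPM), Rpl7l1 (77.8 against 104 CPM) and Rps27l (797 against 1032 CPM).

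On day 7 the cells named differentiating Leydig-like held 14.6% on members, against 12.6% in ECM myofibroblast-like and 12.8% in proliferating progenitor-like cells. The ECM myofibroblast-like cells formed a shallow and a deep cluster, with a median of 1945 and 8935 UMIs per cell and shares of 13.5% and 12.3%. Of the 80 members, 74 were higher in differentiating Leydig-like than in ECM myofibroblast-like cells (44.1% of all genes), with a median of 0.22 against -0.05. Scaled by the median of ratios, the median of all 82 was 0.14. None passed 1.5-fold, as 20.4% of all genes did. Rps27 (0.47), Rpl36a (0.42) and Rps21 (0.40) stood highest. The 6 lower members included Rpl36al (-0.26), Rps27l (-0.22) and Rpsa (-0.11), so the first 2 went against the rest on both days.

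On day 14 the mature state had the lower share. Leydig-like cells, led by the steroidogenic genes Hsd3b1, Cyp17a1 and Cyp11a1 and the hormone gene Insl3, held 10.97% of their UMIs on members, against 13.3% in the differentiating Leydig-like cells beside them. The Leydig-like cells were deeper, with a median of 5575.5 against 2209.5 UMIs. Among cells with 2000 to 6000 UMIs the shares were 11.2% and 13.3%, and without near-identical barcodes 10.9% and 13.3%. Only 4 of the 80 members were higher in Leydig-like cells (43.1% of all genes), with a median of -0.27 against -0.06, and Rpsa alone passed 1.5-fold, as 19.3% of all genes did in either direction.

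Rpsa had 957 CPM in Leydig-like and 1470 CPM in differentiating Leydig-like cells (-0.62). Rpl12, a protein at the base of the stalk, had 1067 and 1588 CPM (-0.57), and Rps12 2412 and 3440 CPM (-0.51). Rplp0 (-0.49) and Rplp1 (-0.43) were also low, and Rplp2 was less so (-0.13). By contrast Rpl38 and Rps28, lowest between days, differed little between these states of day 14, with 428 and 448 CPM and with 474 and 514 CPM. The highest members were Rpl36al (0.17), Rps27l (0.08) and Rpl7l1 (0.03).

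**Figure D4:**
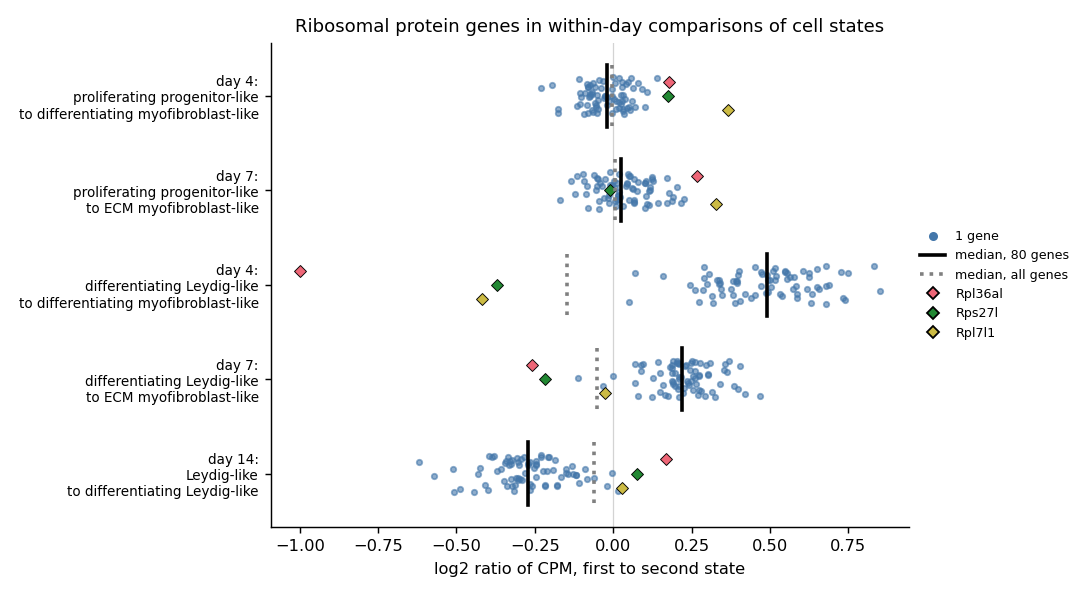
Log2 ratios of CPM for the 80 members with at least 1000 UMIs in 5 comparisons of cell states within a day, 1 point per gene, with the median of the members (solid) and of all genes with as many UMIs (dotted). Members lie right of 0 in differentiating Leydig-like cells of days 4 and 7 and left of 0 in Leydig-like cells, while Rpl36al (diamond) lies on the other side of 0 in each of these 3.

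Proliferating progenitor-like cells and the main myofibroblast-like state of the same day had similar member levels. Unnamed cells, in which proliferating markers summed to 2532 and 2379 CPM on days 4 and 7, were not part of this comparison. Their member shares were 13.3% and 12.8%. Within day 4, 34 of the 80 were higher in proliferating progenitor-like than in differentiating myofibroblast-like cells (49.3% of all genes), with a median of -0.02, and none passed 1.5-fold, as 12.8% of all genes did. Within day 7, 52 of 80 were higher than in ECM myofibroblast-like cells (50.9% of all genes), with a median of 0.03, and again none passed 1.5-fold (14.2% of all genes). Both medians changed sign under some other settings, so no direction is given. Rpl7l1, kin to a yeast assembly factor of the large subunit, was highest in the dividing cells on both days, with 135 against 104 CPM on day 4 (0.37) and 117 against 93.1 CPM on day 7 (0.33). Rpl36al followed, with 476 against 421 CPM (0.18) and 454 against 377 CPM (0.27). Next came Rps27l on day 4 (0.18) and Rpl3, which reaches the peptidyl transferase centre, on day 7 (0.23). The lowest on day 4 were Rpl22l1 (-0.23), Rps28 (-0.20) and Rpl10a (-0.18), and on day 7 Rpl13a (-0.17), Rpl26 (-0.13) and Rplp0 (-0.12).

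The paralogs, whose symbols end in l, were set beside the genes they resemble. Rpl22l1, which can take the place of Rpl22, had 888, 738 and 670 CPM on days 4, 7 and 14, and Rpl22 had 1283, 1011 and 911 CPM. Both were lower at each step, by similar amounts (-0.41 and -0.49 over the course). Rps27l, a target of p53, had 1038, 965 and 795 CPM and Rps27 1450, 1079 and 1012 CPM. Rpl36al had 421, 386 and 353 CPM and Rpl36a 1269, 976 and 924 CPM. Rps27l and Rps27, and likewise Rpl36al and Rpl36a, thus shared a direction between days and stood on opposite sides of 0 in differentiating Leydig-like cells. Rps4l held near level at 166, 167 and 174 CPM, with intervals that overlap, and Rps4x at 2078, 2067 and 1945 CPM. Rpl7l1 had 109, 97.5 and 69.5 CPM.

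Rpl24 and Rpl39l had under 1000 UMIs. Rpl24 had 244 UMIs, or 8.68, 9.20 and 5.07 CPM, far under the other core genes. In the GENCODE annotation of this build it overlaps Gm28037 on the same strand, a symbol with no row in the count table, and the part of the overlap in this count was not tested. Rpl39l, an autosomal copy of Rpl39 known from male germ cells, had 28 UMIs in all (23, 3 and 2 by day). The summed germ cell markers had 1478, 224 and 267 UMIs, also most on day 4, and their part in the Rpl39l count was not tested. Same-strand overlaps were also listed for Rpl13, Rpl13a, Rpl19, Rpl36al and Rps10, and their counts are less certain.

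To place the members among the other genes of the pathway, lists of ribosome assembly and translation factors were summed up in the same way, over genes with at least 20 UMIs. Of all 13593 such genes 51.8% were lower on day 14 than on day 4, with a median of -0.04, against which the lists are read. From day 4 to day 14, 46 of 50 ribosome biogenesis genes were lower, with a median of -0.75. Ncl, a major nucleolar protein, had 1302, 957 and 613 CPM, Npm1, a nucleolar chaperone, 1352, 1273 and 723 CPM, and Nop58, a core protein of small nucleolar RNPs, 613, 458 and 235 CPM. Nop10, of the H/ACA small nucleolar RNPs, went the other way with 252, 329 and 489 CPM. Of the 14 RNA polymerase I genes 12 were lower (median -0.27), and of 29 initiation genes 22 (median -0.45), with Pabpc1, the poly(A) binding protein, at 3251, 3237 and 2023 CPM. Of 11 genes for the nascent chain and its folding 9 were lower (median -0.26). The medians of the polymerase I and nascent chain lists were close to the -0.25 of all genes with at least 1000 UMIs. The 82 members, at -0.16, were thus lower by less than the genes that assemble the ribosome.

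Elongation genes split. Tpt1 (2038, 2655 and 3704 CPM) and Eef1a1, which delivers aminoacyl-tRNA (1932, 2232 and 3429 CPM), were higher on day 14 than on day 4. Its exchange factor subunits Eef1b2 (1144, 1297 and 1145 CPM) and Eef1g (781, 772 and 763 CPM) ended near their day 4 level, and Eef1d, another subunit named after its values were seen, went from 430 to 420 and 310 CPM. Over the 7 genes the median was near 0. The snoRNA host transcripts are mostly noncoding, and several also start with a pyrimidine run. All 8 were lower on day 14 than on day 4 (median -0.33), Gas5 with 672, 597 and 590 CPM. Of 77 mitochondrial ribosomal protein genes 43 were higher (median 0.05), and the difference from the cytosolic list could not be tested. Of 8 S6 kinase genes, named for phosphorylating ribosomal protein S6, 7 were lower (median -0.63), Rps6kb1 with 108, 94.3 and 90.3 CPM, and of 20 Myc and mTORC1 genes 10 were (median -0.004), Eif4ebp1 with 375, 394 and 112 CPM. That list pools activators and inhibitors, so its median gives no direction of a pathway. In it Myc (-1.73), Mycn (-2.12) and Mycl (-2.75) were lower, Mycn and Mycl with only 9 and 4 UMIs on day 14.

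**Figure D5:**
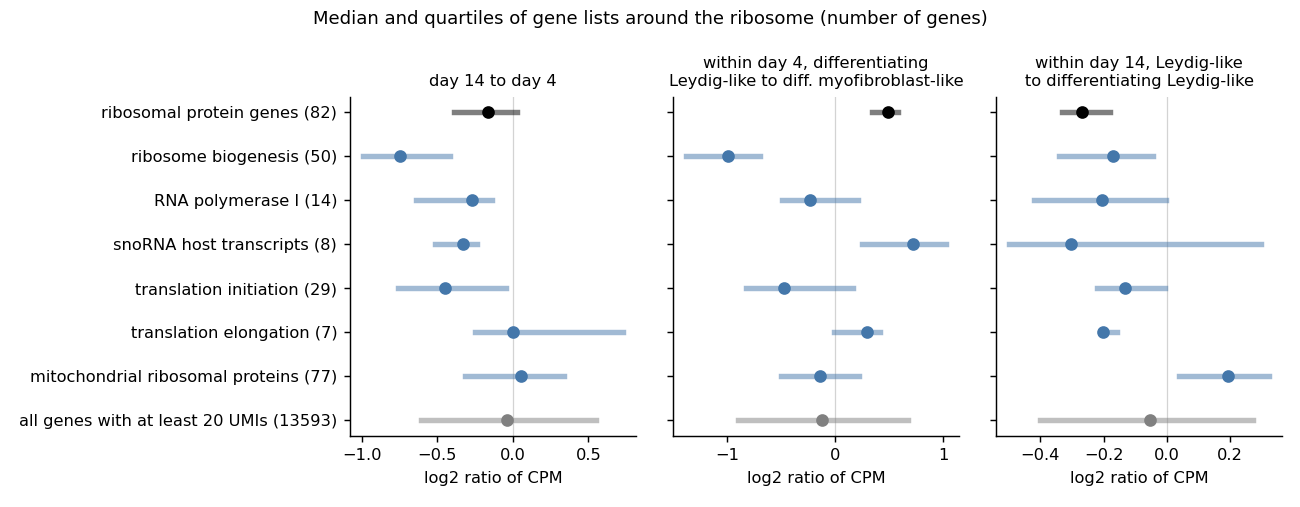
Median (points) and quartiles (bars) of the log2 ratio of CPM for gene lists around the ribosome, in 3 comparisons, with the number of genes in brackets. In the day 4 cells named differentiating Leydig-like the ribosomal protein genes have a median of 0.49 and ribosome biogenesis genes one of -0.99.

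The lists were last compared within days. In the 85 day 4 cells named differentiating Leydig-like, a name lost at resolution 1.2, 46 of the 50 biogenesis genes were lower than in differentiating myofibroblast-like cells (53.8% of all genes with at least 20 UMIs, median -0.12). Their median was -0.99, beside the members' 0.49. With 257113 UMIs in these cells, the ratios of biogenesis genes at low CPM rest on few UMIs. On the members' side of 0 stood the snoRNA hosts, 6 of 8 being higher (median 0.72), as did 5 of 7 genes of the elongation list (0.29). Of 29 initiation genes 19 were lower (-0.48). On day 7, against ECM myofibroblast-like cells, biogenesis stood at -0.31, snoRNA hosts at 0.41 and all 82 members at 0.21. In Leydig-like against differentiating Leydig-like cells of day 14, members (-0.27), biogenesis (-0.17) and elongation (-0.20) were all lower, and 64 of 77 mitochondrial ribosomal protein genes were higher (0.19), as were 44% of all genes with at least 20 UMIs (median -0.05). In proliferating cells of days 4 and 7, biogenesis genes stood at 0.05 and 0.15.

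Transcript length was set beside the ratios after the lowest members had been found to have short transcripts. Among 79 members with a length in the annotation, the 11 under 500 bases had a median log2 ratio of -0.38 from day 4 to day 14, the 18 of 500 to 700 bases -0.32 and the 26 of 700 to 1000 bases -0.01. Other genes of these lengths had medians of -0.001, 0.25 and 0.23. Other genes under 500 bases stood at -0.13 at each of the steps, beside -0.23 and -0.12 for the members of that length. Spearman's rho of length and ratio was 0.30 across members and -0.23 across 4251 other genes, which is a description across genes of the same 2 libraries. Lengths are those of annotated principal transcripts, which need not be the ones these cells use. They reached 5130 bases for Rps15a and 3706 bases for Rps20. The part of length in the members' order was not tested.

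Copies of ribosomal protein genes limit what the counts can say, since the mouse genome holds many near-identical processed pseudogenes. Symbols marked as pseudogenes took 0.0921%, 0.0922% and 0.0791% of UMIs on days 4, 7 and 14. Rps13-ps1 had 4115, 4020 and 320 UMIs, or 325, 346 and 60.1 CPM, and Rps15a-ps8 140, 125 and 36.8 CPM. Rps13 itself was level at 1083, 1133 and 1093 CPM, and with its pseudogenes added it had 1418, 1488 and 1173 CPM, a log2 ratio of -0.34 in place of -0.05 from day 7 to day 14. Most other copies went the opposite way: 46 of the 61 pseudogene symbols with at least 20 UMIs were higher on day 14 than on day 7, with a median of 0.53, against 43.1% of all genes with at least 20 UMIs and a median of -0.12. The part of these copies in the members' counts was not tested beyond adding them. For Rpl38 and Rpl10 the ratio from day 4 to day 14 was -0.98 and 0.85 with the marked pseudogenes added, close to the values without. Copies under other names were not analysed here.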

How the data were processed

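Drop-seq libraries of culture days 4, 7 and 14 (1 each) were analysed. Per the labels and the study's methods, reads were aligned to GRCm38 and UMI counts per gene and cell were deposited by the authors. The submitters' processing notes name STAR 2.5.2a, Picard 2.6.0 and SAMtools 1.2, while the study's methods name another STAR version and Drop-seq tools. The methods state that the 3 days were sequenced in 1 batch. The annotation behind the counts and the handling of reads that match several genes are not given in the sources used here. The deposited counts were already filtered for cells: the fewest genes in a kept cell were 501 and the highest mitochondrial share was 9.93%. Columns of 495 other cells in the merged table belong to no sample given here and were not used.

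UMIs were summed per day or state and scaled to CPM, and log2 ratios were taken after adding 1 CPM. Shares have exact Clopper-Pearson and counts exact Poisson intervals. With 1 library per day no test was run. Cells were clustered in Seurat 5.3.0 (R 4.3.3; 2000 variable genes, 20 components, resolution 0.8) after 549 ribosomal and translation genes had been left out. Clusters were named from marker lists when at least 3 markers were 1.5-fold higher than in other cells and the leading genes did not favour another list. These name thresholds were set after the clusters had been seen, and clusters of 447 and 17 cells stayed unnamed. No doublet caller was run, and the 5% deepest cells per day were left out as an alternative. Transcript lengths and positions came from GENCODE on GRCm38 and start sequences from RefSeq (GRCm38.p6); 61 of 82 members had a start entry. Only the log2 ratio step was tested on simulated counts, with changes in genes with at least 1000 UMIs. These changes had a single size, well past 1.5-fold, up or down. Changes near or under 1.5-fold were not simulated. Sums and intervals were computed with numpy 2.4.6 and scipy 1.17.1.

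Named genes were the 10 members with most UMIs, the 5 highest and 5 lowest per pair of days and the 3 highest and lowest per comparison of states among members with at least 1000 UMIs, all paralogs, stalk genes and low members, and up to 4 genes per list. Some items that these rules would name are not reported here. Members and lists were chosen with earlier results of these data known. Rps13, Rps15a, Rps4x, Rpl22, Eef1d, Myc, Mycn, Mycl and the pseudogenes were named after their values were seen. Alternatives were other cell filters, weights, resolutions, scalings and gene sets.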

Additional observations from a re-analysis of the deposited data

How the results depend on the processing

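The share of UMIs on members was lower at each later day under every alternative tried, which is no test, since each day is 1 library. For days 4, 7 and 14 it was 13.38%, 12.94% and 12.14% without the 5% deepest cells, 13.46%, 13.10% and 12.33% with equal weight per cell, 13.42%, 12.98% and 12.22% thinned to 1500 UMIs, 13.39%, 13.01% and 12.20% without mitochondrial genes, 13.60%, 13.15% and 12.30% in cells of 2000 to 6000 UMIs, and 13.85%, 13.48% and 12.56% with the other ribosomal protein genes and pseudogene symbols added. It was 13.19% on day 4 and 11.78% on day 14 without near-identical barcodes, 12.79% on day 7 and 11.84% on day 14 without a cell filter, and 11.96% on day 14 with a stricter one. Barcodes, the depth range and the comparison of differentiating Leydig-like cells on day 4 were chosen after seeing the data.

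Scaled by the median of ratios, the members' median became -0.17 from day 4 to day 7, -0.098 and -0.022 for proliferating cells of days 4 and 7, 0.14 and 0.28 for differentiating Leydig-like cells of days 7 and 4, and -0.18 for Leydig-like cells of day 14. For proliferating cells it was 0.022 on day 4 at resolution 0.4 and -0.0055 on day 7 after thinning, and -0.076 and 0.00064 in cells of 2000 to 6000 UMIs, so its sign turned on both days. For differentiating Leydig-like cells it was 0.36 on day 4 at resolution 0.4, no value could be had on day 4 at resolution 1.2, where 82 of the 85 cells were named interstitial progenitor-like, and on day 7 it was 0.19 at resolution 1.2 and 0.20 in cells of 2000 to 6000 UMIs. The cause of these changes was not tested. Of 99 values under alternatives, 63 stayed within the counting interval or spread used, 33 moved and 3 moved and changed sign. Within its interval 1 more changed sign, the median of proliferating cells of day 4, at 0.0024 with members kept in the clustering. Of the 80 members with at least 1000 UMIs, 62, 69 and 67 kept 1 direction under all 9 settings from day 4 to 7, day 7 to 14 and day 4 to 14. No paired analysis was possible because each day has 1 library and no test was run.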
